A study of Mus musculus with 25 samples.

Results

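Telencephalic neuron genes, 30 genes that mark excitatory neurons of cortex and hippocampus or projection neurons of striatum, were followed through 4 comparisons of maternal diet. They were chosen by symbol, and all 30 of the 30 symbols were found among the 24421 genes of the authors' deposited tables. The list has 19 cortical and hippocampal members and 11 striatal members.

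RNA was taken from the hypothalamus of 3-month-old wild-type C57BL/6J mice and sequenced after poly(A) selection. Dams ate a hypercaloric diet (HCD, 52% fat with high sucrose) or regular chow (RD) starting 1 month before mating and through pregnancy and lactation, and pups were weaned onto HCD or RD. The 25 samples form 8 groups named by dam diet, weaning diet and sex: HCD-HCD Male (n = 3) against RD-HCD Male (n = 3), HCD-HCD Female (n = 3) against RD-HCD Female (n = 3), HCD-RD Male (n = 3) against RD-RD Male (n = 4), and HCD-RD Female (n = 3) against RD-RD Female (n = 3). These pairs are called HCD-weaned males, HCD-weaned females, RD-weaned males and RD-weaned females below, and no sample belongs to more than 1 of them. Fold changes are given as offspring of HCD dams over offspring of RD dams. The labels state this direction for HCD-weaned offspring only, while the RD-weaned tables are read by the sequence of the group names, so that every sign of the RD-weaned tables would turn if that reading were wrong. The files of each comparison hold 6 library columns, while the labels list 7 samples for RD-weaned males. All groups share the strain, the genotype and the tissue. The labels do not tie samples to litters or pools, and the tests therefore see only the spread among these samples.

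The telencephalon forms cortex, hippocampus and striatum, and lies next to the hypothalamus, which forms from the diencephalon. Excitatory cortical neurons are specified by transcription factors such as Emx1, Tbr1 and the Neurod family and use the vesicular glutamate transporter encoded by Slc17a7. Striatal projection neurons carry either the D1 dopamine receptor (Drd1) or the D2 dopamine receptor and an adenosine receptor (Drd2, Adora2a), and relay them through cyclic AMP enzymes and DARPP-32 (Ppp1r1b). The division is not strict: Bcl11b also marks striatal projection neurons, and Mef2c is also expressed in microglia and interneurons.

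The tissue label was set against its own markers first. Sim1, Otp, Fezf1, Nkx2-1, Nr5a1, Hmx2, Hmx3 and Tbx3, transcription factor genes of hypothalamic neurons, summed to 9.0 CPM (counts scaled to 1000000 per table) in the table of HCD-weaned males, 5.83 CPM in HCD-weaned females, 8.2 CPM in RD-weaned males and 8.21 CPM in RD-weaned females. The mean normalized count of Nr5a1, the factor of the ventromedial nucleus, was 11.6, 0.735, 0.747 and 0.739 in the same order in the authors' deposited tables, so it was near 0 in 3 of the 4. Hmx2 did not exceed a mean of 3.89 in any of the authors' deposited tables. Peptide genes of the hypothalamus varied widely in level, the lowest of 12 listed standing at 0.342, 0.415, 0.0999 and 0.596 CPM, and 4 of the 12 were not tested in RD-weaned males. The precursor gene of melanin-concentrating hormone, Pmch, stood at 120, 125, 116 and 299 CPM, and Oxt, which encodes oxytocin, at 16.8, 32.6, 0.905 and 50.9 CPM. The 19 cortical and hippocampal members together reached 2923, 2642, 2832 and 4022 CPM in that order, and the 11 striatal members 1468, 2117, 1833 and 2482 CPM. The summed level of either telencephalic set was thus more than 100 times that of these factors, a comparison of CPM without regard to length, and transcription factor genes are often expressed at low levels. Camk2a alone gave 1360, 1084, 1438 and 1788 CPM of the cortical sums in the same order, so these sums do not describe a typical member. In bulk tissue, fewer cells of a type and less RNA per cell cannot be told apart.

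The level of each member was expressed per kilobase of transcript, so that genes can be compared. Nrgn, which encodes the calmodulin-binding protein neurogranin, was the most abundant, at 399, 539, 319 and 716 CPM per kb, giving HCD-weaned males, HCD-weaned females, RD-weaned males and RD-weaned females in turn. Camk2a, a kinase gene of excitatory synapses, followed with 274, 218, 289 and 360 CPM per kb. Among the striatal genes, Ppp1r1b led with 166, 332, 196 and 346 CPM per kb. Several transcription factor genes lay at the lower end of the cortical set, with Emx1 at 3.55, 3.6, 2.94 and 6.97 CPM per kb and Prox1, a factor of dentate granule cells, at 1.5, 1.77, 2.15 and 1.3 CPM per kb. Nptxr, the neuronal pentraxin receptor gene, was lowest of all at 0.816, 0.386, 0.671 and 0.476 CPM per kb. The lowest striatal gene was Rarb, a retinoic acid receptor gene, with 5.5, 7.77, 5.88 and 8.5 CPM per kb.

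Levels over both groups of a comparison also differed between the tables, which the authors normalized separately and which hold no common samples. RD-weaned females had the highest level for 14 of the 19 cortical and hippocampal members and for 10 of the 11 striatal members. The ratio of the highest to the lowest table had a median of 1.67 in the cortical set and 1.75 in the striatal set. It was largest for Spink8, a protease inhibitor gene of hippocampal pyramidal cells, which stood at 12.5, 10.1, 3.44 and 16.1 CPM per kb. Neighbours in the order of levels, such as Rasgrf2, Lhx2 and Mef2c, with medians over the tables of 11.1, 10.6 and 10.1 CPM per kb, spanned overlapping ranges. Single libraries could not be assigned to a group, so no spread over samples can be given for any level.

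**Figure D1:**
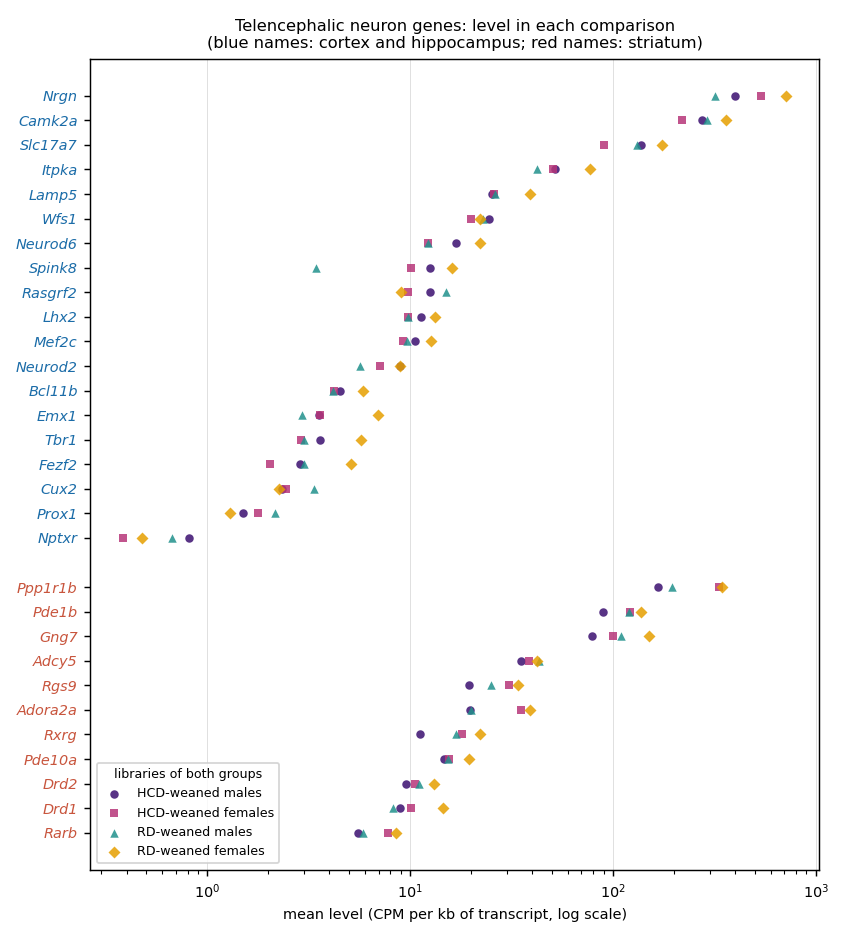
Level of each of the 30 genes (horizontal axis, CPM per kb of transcript, log scale) averaged by the authors over the libraries of both groups of a comparison, with 1 marker per comparison and no error bar. Nrgn, Camk2a and Ppp1r1b are at the high end and Nptxr at the low end, and the markers of RD-weaned females are the rightmost for most genes.

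Promoter sequence was read for the members, since the values of a set often shared a sign in the comparisons below. RefSeq (GRCm38.p6) gave windows of 250 bases before an annotated start for 25 of 30 members, 37 windows in all, and had none for Camk2a, Spink8, Nptxr, Ppp1r1b and Adora2a. Motifs were searched on both strands: the E-boxes CAGATG and CAGCTG, which share the frame CANNTG, the cyclic AMP element TGACGTCA and the MEF2 element. CAGATG, the form preferred by the Neurod factors, was in 6 of 22 cortical and hippocampal windows and 3 of 15 striatal windows, against 14.4% of all 32851 windows of that length. CAGCTG was in 3 striatal windows (Pde10a, Rgs9, Rxrg) and in 0 cortical ones, against 13.0% of all windows. TGACGTCA, present in 1.55% of all windows, and the MEF2 element, in 2.92%, were in 0 of the 37. A match of these letters is a description and not a binding site. The windows of 4 genes are shown as examples, and no result below rests on them. Mef2c passed the test in RD-weaned females, and Neurod2 and Slc17a7 were among its cortical neighbours in size. Rgs9, a regulator of G protein signalling, was among the most negative striatal genes of HCD-weaned males. Emx1 and Tbr1, also neighbours of Mef2c in size, and Drd1, the most negative striatal gene there, had 0 CAGATG in their windows. The 4 shown therefore do not represent the 37 windows, of which 9 held CAGATG. Mef2c is read on the plus strand at chr13:83573357-83573606, the 1 of its 3 windows with a CAGATG, Neurod2 on the minus strand at chr11:98329646-98329895, Slc17a7 on the plus strand at chr7:45163671-45163920 and Rgs9 on the minus strand at chr11:109298182-109298431. The Mef2c window lies inside the gene. By the GENCODE annotation 3 bases of the Neurod2 window and 0 of the other 3 windows are exonic. Capitals mark CAGATG or CAGCTG on the strand shown.
Mef2c: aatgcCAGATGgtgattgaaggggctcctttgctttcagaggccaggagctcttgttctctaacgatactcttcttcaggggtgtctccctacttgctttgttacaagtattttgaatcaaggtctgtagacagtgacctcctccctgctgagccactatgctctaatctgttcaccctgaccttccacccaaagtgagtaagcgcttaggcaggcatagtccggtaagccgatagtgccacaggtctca
Neurod2: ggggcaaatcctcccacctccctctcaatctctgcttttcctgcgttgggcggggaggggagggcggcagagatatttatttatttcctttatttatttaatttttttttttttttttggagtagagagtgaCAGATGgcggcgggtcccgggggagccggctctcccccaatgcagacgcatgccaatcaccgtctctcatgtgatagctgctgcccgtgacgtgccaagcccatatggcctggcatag
Slc17a7: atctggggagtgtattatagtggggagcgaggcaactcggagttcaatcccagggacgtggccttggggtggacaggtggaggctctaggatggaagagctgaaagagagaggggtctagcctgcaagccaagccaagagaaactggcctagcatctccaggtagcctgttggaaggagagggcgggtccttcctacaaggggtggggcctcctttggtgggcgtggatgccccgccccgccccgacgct
Rgs9: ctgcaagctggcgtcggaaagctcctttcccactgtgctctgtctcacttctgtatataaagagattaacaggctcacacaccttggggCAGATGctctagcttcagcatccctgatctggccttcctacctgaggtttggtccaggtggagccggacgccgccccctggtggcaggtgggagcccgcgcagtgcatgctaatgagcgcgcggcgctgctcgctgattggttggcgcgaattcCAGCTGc
Mef2c, Neurod2 and Rgs9 each hold 1 CAGATG, Rgs9 has 1 CAGCTG at the end of its window as well, and the window of Slc17a7 holds neither. By GENCODE the gene Rgs9 begins at 109298129 and not directly after its window.

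In HCD-weaned males the striatal genes were lower in offspring of HCD dams than in offspring of RD dams by their fitted values, all 11 of them, while the cortical genes lay on both sides of 0. No member passed the test. The striatal median log2 fold change was -0.58, between -0.97 and -0.27, against a median of -0.01 over all genes tested. The cortical and hippocampal median was -0.07, with 9 positive and 10 negative values. At an adjusted p under 0.05 by the authors' DESeq test, 0 of 30 members were called, beside 0.163% of the 15384 genes tested. At an unadjusted p under 0.05, 4 of 11 striatal members were negative and 0 positive, beside 4.73% and 3.42% of all genes. The same measure gave 2 negative and 0 positive cortical members.

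Among the striatal receptors of these males, Drd1 had the most negative value, -0.97 ± 0.32 (SE; p = 0.00228, adjusted p = 0.318) in the authors' deposited table, a 1.96-fold difference. Adora2a stood at -0.61 ± 0.32 and Drd2 at -0.40 ± 0.32 in the authors' deposited table, so both receptors of the other striatal neuron class were also below 0. Of the signalling genes, Rgs9 had -0.72 ± 0.31 (adjusted p = 0.539), the cyclic nucleotide phosphodiesterase gene Pde10a -0.72 ± 0.32 and Ppp1r1b -0.59 ± 0.29 in the authors' deposited table. The values nearest to 0 belonged to the phosphodiesterase gene Pde1b (-0.27 ± 0.29) and the striatal adenylyl cyclase gene Adcy5 (-0.29 ± 0.31) in the authors' deposited table. Both nuclear receptor genes, Rxrg (-0.58 ± 0.30) and Rarb (-0.52 ± 0.30), and the G protein subunit gene Gng7 (-0.44 ± 0.30) lay between these in the authors' deposited table.

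In the cortical set of HCD-weaned males, Prox1 (-0.68 ± 0.27, SE; adjusted p = 0.50) and Bcl11b (-0.67 ± 0.31; adjusted p = 0.556) were the most negative in the authors' deposited table, and Bcl11b is shared with striatal neurons. Emx1 (0.34 ± 0.29) and Neurod2 (0.20 ± 0.26), factors of cortical excitatory neurons, had the most positive statistics in the authors' deposited table, both within 2 standard errors of 0. A separate list of 14 further striatal genes was negative in 14 of 14 (median -0.50), 6 of them at an unadjusted p under 0.05, among them the enkephalin precursor gene Penk (-0.65 ± 0.30 in the authors' deposited table). This gene was named after its value was seen. The 14 further cortical and hippocampal genes had a median of -0.14, with 4 positive and 10 negative.

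Markers of other regions also departed from 0 in the same table. Transcription factor genes of hypothalamic neurons were negative in 6 of 6 tested (median -1.08), and of these Sim1 (-1.37 ± 0.32; adjusted p = 0.0185) and Fezf1 (-1.55 ± 0.32; adjusted p = 0.00242) passed in the authors' deposited table. Their summed level was 9.0 CPM, and 2 of the 8 were too low to be tested. Hypothalamic neuropeptide genes were negative in 9 of 11 tested (median -0.59, summed level 360.4 CPM), and 3 were called, Oxt (-2.27 ± 0.31; adjusted p = 7.05e-09), Pmch (-1.93 ± 0.30; adjusted p = 1.23e-06) and Hcrt, the orexin precursor gene (-1.73 ± 0.32; adjusted p = 0.000519), in the authors' deposited table. Habenula genes were positive in 4 of 4 (median 0.62, summed level 25.5 CPM), with the nicotinic receptor gene Chrnb4 called (1.32 ± 0.32; adjusted p = 0.0218) per the authors' deposited table. The part of tissue composition in the striatal values was not tested.

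In HCD-weaned females the medians of both sets lay near 0 and single cortical genes spread widely. Camk2a and Prox1 were the most negative and Nrgn the most positive, and 0 of 30 members were called by the authors' DESeq test, beside 1.52% of 15043 genes. The cortical median was 0.13, with 10 positive and 9 negative values between -1.19 and 0.92. The striatal median was 0.03, with 8 positive and 3 negative values. At an unadjusted p under 0.05 there were 1 positive and 2 negative cortical members and 0 striatal ones, beside 7.1% positive and 6.22% negative over all genes.

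Camk2a stood at -0.81 ± 0.25 (SE; p = 0.00107, adjusted p = 0.0585) per the authors' deposited table of HCD-weaned females, a 1.75-fold difference. When only genes with a mean normalized count of at least 100 were adjusted together, its adjusted p was 0.0466. With the trend in length and GC content removed, as described below, it was 0.282. In that setting 293 of 11986 genes were called. Prox1 had -1.19 ± 0.41 (adjusted p = 0.11 in the authors' deposited table), a 2.28-fold difference at a low level. Nrgn, which binds calmodulin as the Camk2a kinase does, lay on the other side, at 0.92 ± 0.34 (adjusted p = 0.153 per the authors' deposited table), and Spink8 at 0.87 ± 0.44 (adjusted p = 0.377 per the authors' deposited table). The most abundant cortical genes therefore did not share a sign, and Slc17a7 stood at -0.22 ± 0.19 in the authors' deposited table.

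Of the striatal genes in HCD-weaned females, Adora2a (0.59 ± 0.44, SE) and Ppp1r1b (0.50 ± 0.39) had the most positive statistics in the authors' deposited table. Pde10a (-0.52 ± 0.42) and Gng7 (-0.24 ± 0.25) had the most negative in the authors' deposited table. Drd1 and Drd2 were at 0.01 ± 0.35 and 0.00 ± 0.42 in the authors' deposited table, so the intervals of both dopamine receptors reach well to either side of 0. The 14 further striatal genes had a median of 0.12 (11 positive) and the 14 further cortical genes 0.19 (10 positive). Beside these, astrocyte genes were negative in 5 of 6 (median -0.48), with the water channel gene Aqp4 called (-1.25 ± 0.33, adjusted p = 0.0229) per the authors' deposited table. The neuronal tubulin gene Tubb3 was called positive (0.83 ± 0.18, adjusted p = 0.00257) in the authors' deposited table. It is 1 of 8 genes listed for neurons in general and does not stand for that list.

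In RD-weaned males both medians were at 0.04 or below, and Mef2c had the most positive value, with the direction read as stated above. None of the 29 members tested was called by the authors' DESeq test (0 calls), beside 0.0851% of 12920 genes. The cortical median was 0.04, with 10 positive and 8 negative values, and the striatal median 0.01, with 6 positive and 5 negative. At an unadjusted p under 0.05, 2 cortical members and 1 striatal member were positive and 0 negative, beside 1.93% positive and 2.36% negative over all genes. Spink8 has no p in this table and stood at 0.38 ± 0.34 (SE) with a mean normalized count of 40.7 in the authors' deposited table.

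Mef2c, a transcription factor gene of activity-dependent synapse control, had 1.09 ± 0.34 (SE; p = 0.00148, adjusted p = 0.276) per the authors' deposited table of RD-weaned males, a 2.13-fold difference. Wfs1, which encodes the endoplasmic reticulum protein wolframin, had 0.73 ± 0.32 (adjusted p = 0.998) per the authors' deposited table. The most negative cortical genes were Rasgrf2, an exchange factor gene (-0.55 ± 0.45), and Lamp5, a neuronal lysosome-associated membrane protein gene (-0.27 ± 0.45), in the authors' deposited table. In the striatal set, Pde10a (0.77 ± 0.34; adjusted p = 0.998) and Adora2a (0.33 ± 0.45) were the most positive and Rxrg (-0.73 ± 0.45) and Gng7 (-0.32 ± 0.45) the most negative in the authors' deposited table. The median standard error of the members here was 0.43 in the cortical set and 0.45 in the striatal set, so a passing value had to be large. The largest of any gene was 0.454, and Nrgn, Ppp1r1b, Gng7, Drd1 and Rxrg all rounded to that value. Medians near 0 therefore do not show that the members were unchanged. Thalamus genes were positive in 8 of 8 (median 0.56, summed level 850.1 CPM), with 0 called and 2 at an unadjusted p under 0.05. Snap25, a synaptic vesicle fusion gene, was called (0.88 ± 0.14, adjusted p = 2.31e-06) in the authors' deposited table. It is 1 of 8 genes listed for neurons in general and does not stand for that list.

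In RD-weaned females 15 of 19 cortical and hippocampal genes had higher fitted values in offspring of HCD dams, if the direction not given by the labels is read as for the other tables, and Spink8 and Mef2c rose past the threshold. Spink8 was 2.82-fold and Mef2c 2.02-fold higher. These 2 of 30 members called, both positive, stand beside 0.346% of 15028 genes called in either direction and 0.12% called positive. The cortical median was 0.64, with 4 negative values, against 0.01 over all genes. At an unadjusted p under 0.05, 10 of 19 cortical members were positive and 0 negative, beside 2.81% and 3.35% of all genes. The striatal median was 0.30, with 10 of 11 positive, 2 of them at an unadjusted p under 0.05.

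Spink8 stood at 1.50 ± 0.30 (SE; p = 4.07e-07, adjusted p = 0.00113) per the authors' deposited table of RD-weaned females, the most positive value among all genes tested there. Mef2c had 1.02 ± 0.23 (p = 9.4e-06, adjusted p = 0.00848) in the authors' deposited table. Over the 6 alternative settings tried the adjusted p ranged between 0.000374 and 0.00145 for Spink8 and between 0.0036 and 0.0105 for Mef2c. Spink8 lies on chromosome 9 between 109812280 and 109826633 on the plus strand and Mef2c on chromosome 13 between 83504034 and 83667080 on the plus strand, in the GENCODE annotation of GRCm38.

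The next cortical transcription factors had values of like size that did not pass. Emx1 had 1.06 ± 0.30 (SE; adjusted p = 0.0756), Neurod2 1.04 ± 0.29 (adjusted p = 0.0864) and Tbr1 1.00 ± 0.29 (adjusted p = 0.092) in the authors' deposited table. Fezf2, the factor of subcortical projection neurons, had 0.64 ± 0.30 in the authors' deposited table. Among the synaptic genes, Slc17a7 stood at 0.94 ± 0.28 (adjusted p = 0.109), Nrgn at 0.90 ± 0.29, Lamp5 at 0.84 ± 0.29 and Itpka, an inositol trisphosphate kinase gene of dendritic spines, at 0.77 ± 0.29 in the authors' deposited table. Not all abundant cortical genes did so: Camk2a was at 0.12 ± 0.28 and Wfs1 at 0.04 ± 0.22 in the authors' deposited table. The most negative were Prox1 (-0.44 ± 0.29) and Rasgrf2 (-0.39 ± 0.25), followed by the upper-layer factor gene Cux2 (-0.30 ± 0.24), in the authors' deposited table.

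In the striatal set of RD-weaned females, Adora2a (0.62 ± 0.29, SE; adjusted p = 0.725) and Ppp1r1b (0.59 ± 0.29; adjusted p = 0.764) were the most positive in the authors' deposited table. Drd1 stood at 0.44 ± 0.29 and Drd2 at 0.26 ± 0.28 in the authors' deposited table, both on the same side as Adora2a. Gng7 (0.02 ± 0.29) and Rxrg (-0.10 ± 0.29) were the lowest in the authors' deposited table. Of the 14 further cortical and hippocampal genes 12 were positive and 1 negative (median 0.51), 6 of them at an unadjusted p under 0.05 and 0 called. Of the 14 further striatal genes 13 were positive and 1 negative (median 0.30), with 0 at an unadjusted p under 0.05. Interneuron genes of the telencephalon had 3 positive and 3 negative values (median 0.09), and neurons in general 4 and 4 (median 0.11).

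Markers of other regions also departed from 0 in RD-weaned females. Thalamus genes were negative in 7 of 7 tested (median -0.63, summed level 473.4 CPM), with the factor gene Gbx2 called (-1.11 ± 0.29; adjusted p = 0.0474) per the authors' deposited table. The habenula receptor gene Gpr151 was called at -1.57 ± 0.29 (adjusted p = 0.00035) in the authors' deposited table. Choroid plexus genes were positive in 5 of 6 (median 0.76), with Kl (1.01 ± 0.23; adjusted p = 0.00867) and Kcnj13 (0.84 ± 0.22; adjusted p = 0.0479) called in the authors' deposited table. Microglia genes were positive in 6 of 6 (median 0.34, summed level 349.0 CPM), which stands beside Mef2c as a gene that microglia also express. Hypothalamic neuropeptide genes were negative in 10 of 11 tested (median -0.22, summed level 588.6 CPM), 4 of them at an unadjusted p under 0.05 and 0 called, and hypothalamic transcription factor genes in 5 of 5 tested (median -0.33, summed level 8.21 CPM), 1 of them at an unadjusted p under 0.05 and 0 called. The part of these markers in the cortical values was not tested.

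**Figure D2:**
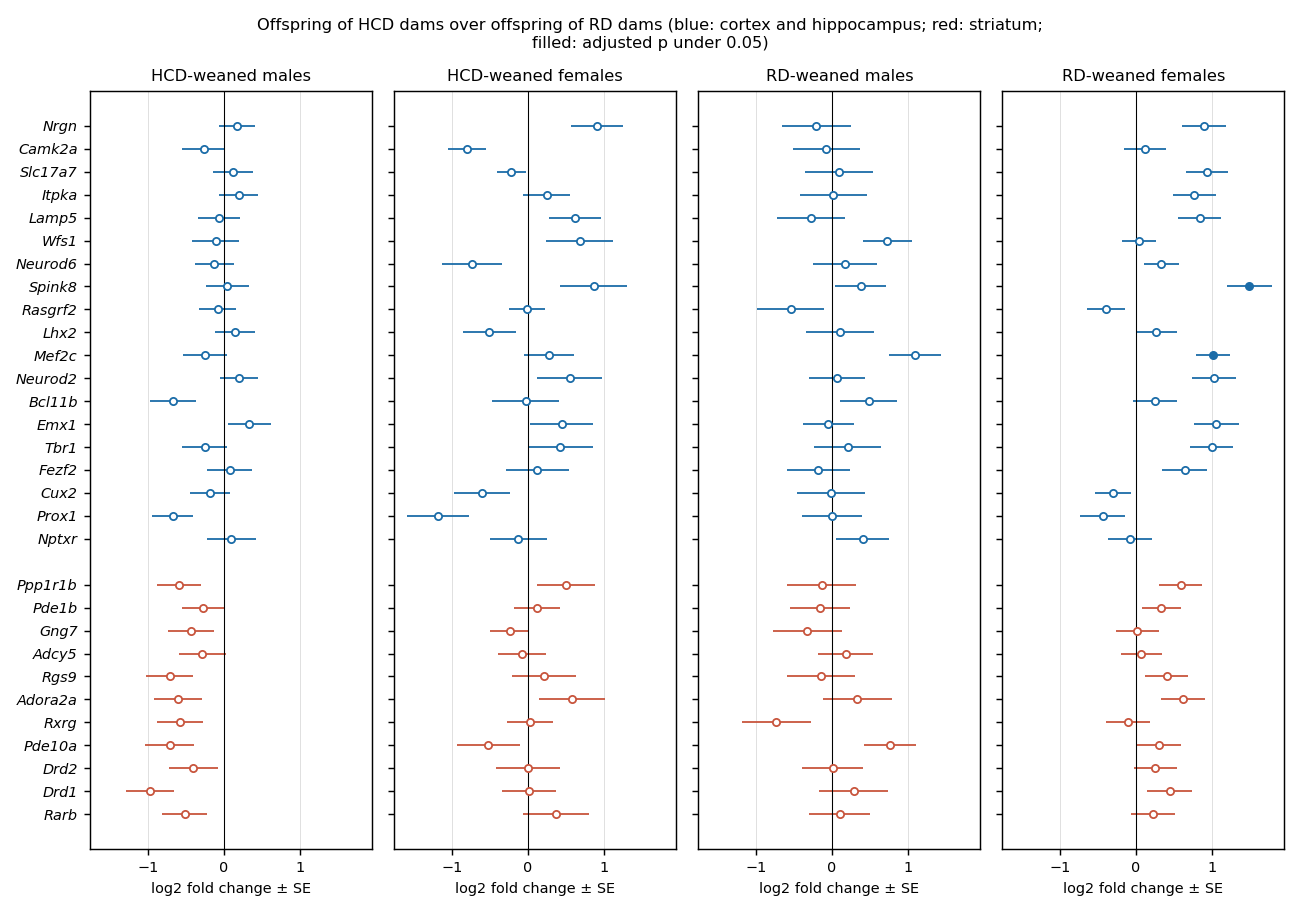
Log2 fold change of each gene, offspring of HCD dams over offspring of RD dams (horizontal axis), with its standard error as a bar, in the 4 comparisons; filled points have an adjusted p under 0.05. All striatal points of HCD-weaned males lie left of 0, and the filled points of RD-weaned females are Spink8 at 1.50 and Mef2c at 1.02.

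The distance between the medians of the 2 sets was described for each comparison. The cortical median exceeded the striatal median by 0.51 in HCD-weaned males and 0.34 in RD-weaned females, and by 0.10 for HCD-weaned females and 0.03 for RD-weaned males. With the length and GC trend removed it was -0.05 in HCD-weaned females, on the other side of 0. All 11 striatal members lay below the cortical median in HCD-weaned males and again in RD-weaned females, although the striatal median was below 0 in the one and above it in the other. In HCD-weaned females 7 of 11 and in RD-weaned males 6 of 11 did so. The further lists had the same arrangement in HCD-weaned males, with medians of -0.14 for cortex and -0.50 for striatum, and in RD-weaned females, with 0.51 and 0.30. With the RD-weaned tables turned, the order in RD-weaned females is the opposite one: the cortical median is -0.64, the striatal median -0.30, and all 11 striatal members lie above the cortical median. These are descriptions of chosen lists, and no test of the distance was made.

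**Figure D3:**
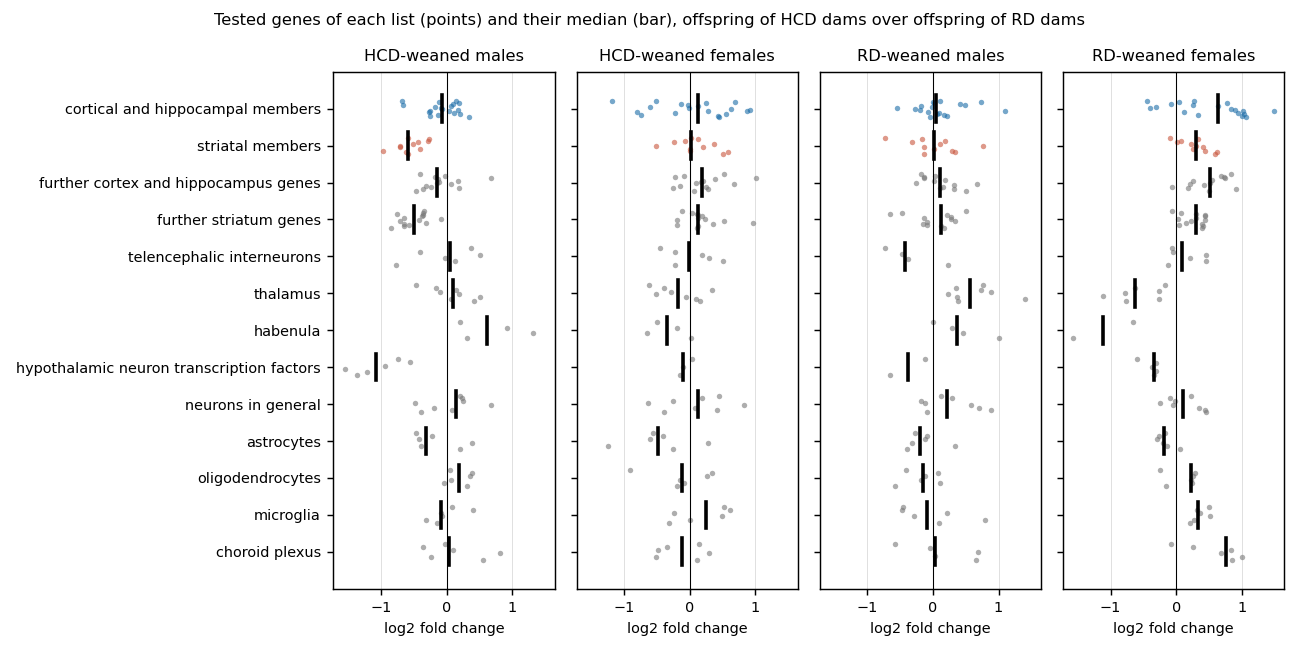
Log2 fold change, offspring of HCD dams over offspring of RD dams (horizontal axis), of each tested gene (points) and the median (bar) for both telencephalic sets and for further marker lists in the 4 comparisons. The bars of both striatal lists stand at -0.58 and -0.50 in HCD-weaned males, and those of both cortical lists at 0.64 and 0.51 in RD-weaned females, where the thalamus bar is at -0.63.

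Seen gene by gene and with the RD-weaned tables read as stated above, 3 cortical members were negative in each of the 4 comparisons (Prox1, Cux2 and Rasgrf2) and 3 were positive in each (Neurod2, Itpka and Spink8, the last with no p in RD-weaned males). No striatal member kept 1 sign throughout, and 4 of the 11 (Adora2a, Drd1, Drd2 and Rarb) were positive in every comparison but HCD-weaned males. Some of these signs rest on values of about 0, such as 0.00 for Drd2 in HCD-weaned females, -0.01 for Rasgrf2 in HCD-weaned females and -0.01 for Cux2 in RD-weaned males. With both RD-weaned tables turned, none of these 6 cortical members kept 1 sign, and 2 cortical (Neurod6, Bcl11b) and 2 striatal members (Pde10a, Adcy5) were negative in all 4 comparisons. Across the 30 genes the fold changes of HCD-weaned and RD-weaned females had a Spearman rho of 0.63, with the same sign in 21 of 30. The rho was 0.41 between HCD-weaned males and RD-weaned females and 0.27 between HCD-weaned males and HCD-weaned females, while RD-weaned males had values between -0.15 and 0.11 with the others, over 29 genes. These comparisons share no samples, and values that pair an HCD-weaned with an RD-weaned table would turn with the direction of the RD-weaned table, but genes are not independent points, and they share the relation with transcript length given next.

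Fold changes were related to transcript length over all genes, most clearly in 3 of the tables. The Spearman rho of the Wald statistic, the fold change over its standard error, with the length of the longest coding transcript was -0.569 for HCD-weaned males, -0.464 for HCD-weaned females, 0.0934 for RD-weaned males and -0.224 for RD-weaned females, across genes. For the members' fold changes it was -0.437, -0.562, 0.432 and -0.559 in the same order. The genes negative in every comparison under the stated reading have long transcripts, with 7913 bases for Prox1, 8784 for Cux2 and 5797 for Rasgrf2, and Spink8 has the shortest, 768 bases. Other long members did not keep a negative sign. Bcl11b (8111 bases), Pde10a (7769) and Adcy5 (7008) were positive in 2 comparisons and Mef2c (6277) in 3. The part of length in these signs was not tested. With the trend in length and GC content removed over all genes, the striatal median of HCD-weaned males was -0.53 with 0 of 11 positive, and the cortical median of RD-weaned females 0.60 with 15 of 19 positive. Spink8 was then at 1.48 (adjusted p = 0.00145) and Mef2c at 1.07 (adjusted p = 0.00396), computed on the authors' Wald statistics. In HCD-weaned females the same step on the authors' values moved Camk2a to -0.65 (adjusted p = 0.282), Nrgn to 0.59 (adjusted p = 0.698), Pde10a to -0.18 and Ppp1r1b to 0.26. In HCD-weaned males it moved Prox1 to -0.33, Bcl11b to -0.38, Emx1 to 0.03, Neurod2 to 0.10 and Adcy5 to -0.12.

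**Figure D4:**
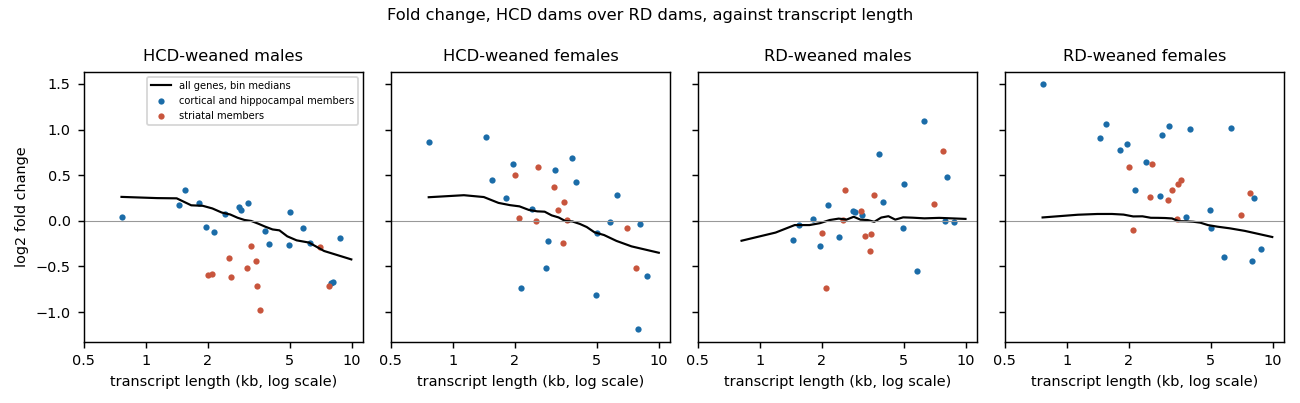
Log2 fold change, offspring of HCD dams over offspring of RD dams (vertical axis), against transcript length (horizontal axis, kilobases, log scale), with members as points and the median of all genes in 20 bins of equal gene number as a line. The line falls with length in HCD-weaned males and HCD-weaned females, where long cortical genes such as Prox1 also lie low, and the striatal points of HCD-weaned males are mostly below the line.

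Whether the effect of maternal diet differed between sexes or weaning diets was tested gene by gene. The difference of 2 fold changes was set against its standard error, combined from both tables, and p-values were adjusted over all genes tested in both tables. In none of the 4 differences did a member pass (0 of 30 or 29 in each). For HCD-weaned males minus HCD-weaned females, only 0.348% of all genes were positive and 0.294% negative at an unadjusted p under 0.05. These shares lie far below that threshold, so the test was conservative there. It subtracts fold changes that look shrunken toward 0, and a lack of calls does not show equal effects. Over all genes, 0.0% were called for HCD-weaned males minus HCD-weaned females, 0.00791% for RD-weaned males minus RD-weaned females, 0.00775% for HCD-weaned males minus RD-weaned males and 0.00685% for HCD-weaned females minus RD-weaned females. The median standard error of a member's difference was between 0.46 and 0.54, so a difference had to reach about 1 on the log2 scale for even an unadjusted p under 0.05.

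Striatal genes had the more negative effect in HCD-weaned males than in HCD-weaned females by their fitted values, in 11 of 11 (median difference -0.61). At an unadjusted p under 0.05 there were 3, beside 0.294% of all genes in that direction and 0.348% in the other: Adora2a (-1.20, 95% interval -2.25 to -0.14), Ppp1r1b (-1.09, -2.04 to -0.14) and Drd1 (-0.98, -1.92 to -0.05), each with an adjusted p of 1.00. The cortical genes had 7 positive and 12 negative differences (median -0.07), with 0 at an unadjusted p under 0.05. Against RD-weaned males, the striatal effect of HCD-weaned males was more negative in 10 of 11 (median -0.47). From the authors' fold changes, Pde10a differed by -1.48 (p = 0.00161, adjusted p = 0.83) and Drd1 by -1.26 (p = 0.0233, adjusted p = 0.978), beside 2.08% of all genes at an unadjusted p under 0.05 in that direction and 1.76% in the other. In the cortical set the same difference of the authors' fold changes put Mef2c at -1.34 (p = 0.00297, adjusted p = 0.903) and Bcl11b at -1.16 (p = 0.0169).

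For HCD-weaned females minus RD-weaned females the difference was negative for 16 of 19 cortical genes by their fitted values (median difference -0.53), which for some, such as Camk2a and Prox1, meant a more negative effect in HCD-weaned females and not a smaller one. From the authors' fold changes, Slc17a7 had the lowest p of any member in any difference, -1.16 with an interval between -1.82 and -0.50 (p = 0.000595, adjusted p = 0.30), and Neurod6 (-1.07) and Camk2a (-0.93) also had an unadjusted p under 0.05, beside 2.47% of all genes in that direction and 2.53% in the other. The striatal genes had a median difference of -0.20, with 0 at an unadjusted p under 0.05. For RD-weaned males minus RD-weaned females the cortical median was -0.18, with 6 positive and 12 negative. Lamp5 (-1.12), Emx1 (-1.11), Nrgn (-1.11) and Neurod2 (-0.97) had an unadjusted p under 0.05 there, beside 1.67% of all genes in that direction and 1.38% in the other, and with the length and GC trend removed 1 cortical member did in place of 4. The striatal median was -0.29, with 9 of 11 negative and 0 at an unadjusted p under 0.05. The differences that subtract RD-weaned offspring from HCD-weaned offspring rest on reading both tables in the same direction. With the RD-weaned table turned, the cortical median for HCD-weaned females minus RD-weaned females was 0.73, with 12 positive and 7 negative. The striatal median was 0.45, with 7 positive and 4 negative, so both medians changed sign. Nrgn and Spink8 then passed, but over all 14603 genes the number passing also rose, from 1 to 186. For HCD-weaned males minus RD-weaned males the striatal median was then -0.44, again with 10 of 11 negative. There 1 striatal and 0 cortical members had an unadjusted p under 0.05, beside 379 negative and 343 positive of all 12910 genes.

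**Figure D5:**
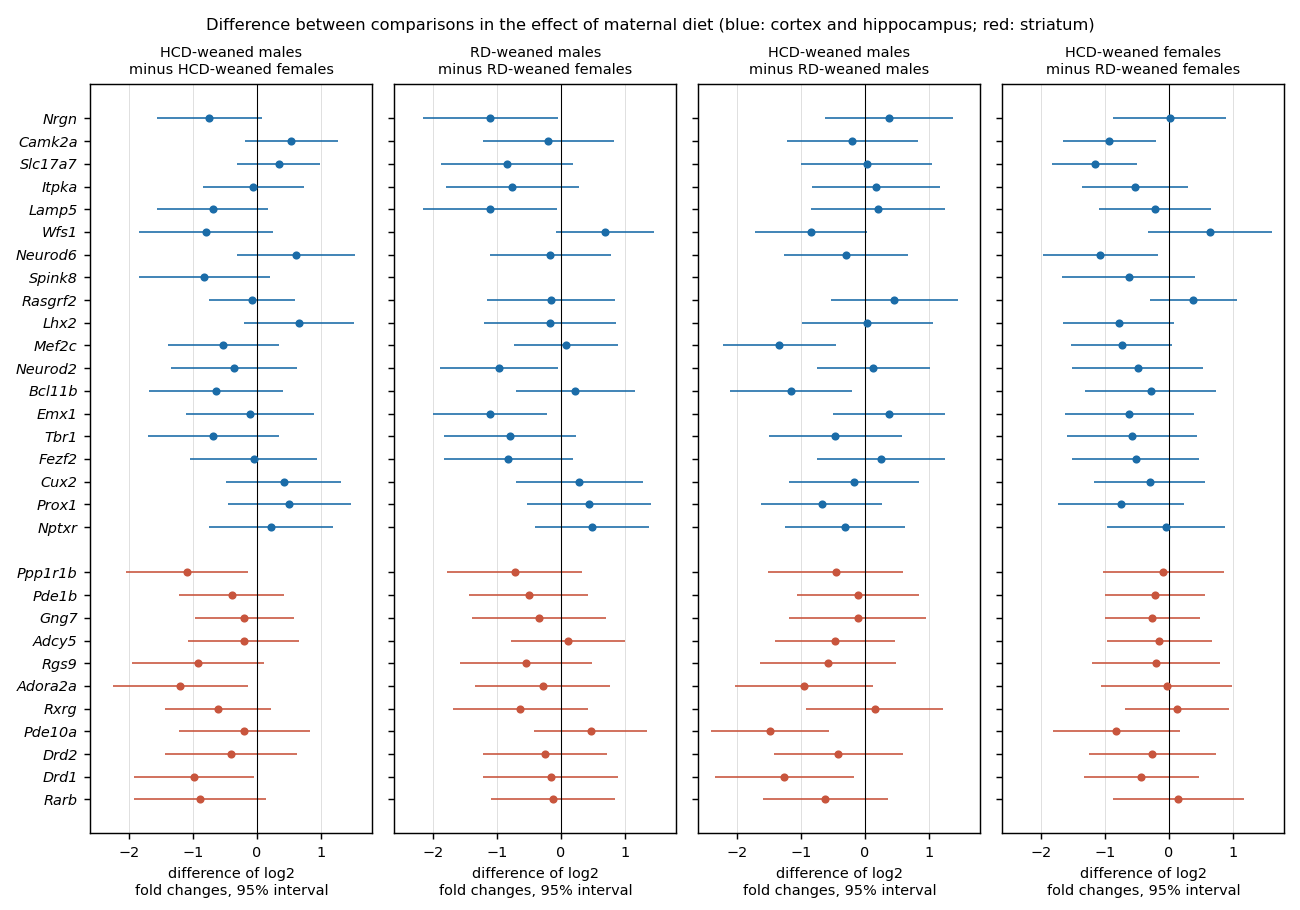
Difference between 2 comparisons in the log2 fold change of each gene (horizontal axis) with its 95% interval as a bar. All striatal points of HCD-weaned males minus HCD-weaned females lie left of 0, with Adora2a at -1.20, and most cortical points of HCD-weaned females minus RD-weaned females lie left of 0, with Slc17a7 at -1.16.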

How the data were processed

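Hypothalamus of 25 mice was sequenced with a stranded mRNA kit, per the labels' protocols. DESeq (no version) and the build mm10 are named in the submitters' processing notes, per the labels; no aligner, counter or annotation is named there. Among 12 deposited files, the authors' 4 comparison tables were used. Per the file headers, these hold a mean normalized count per gene over the libraries (a signal that is never negative), a log2 fold change with its standard error, the Wald statistic (a score), a p-value and an adjusted p-value, all as the authors deposited them. The Wald statistic equalled the fold change over its standard error, and the adjusted p the Benjamini-Hochberg value over the genes that have one. The other 8 files hold counts and regularized log2 values in 48 deposited library columns; their names match no label, so they were not used, and no depth or value per sample is given. Counts were therefore not tested anew. The count test planned in their place, like the alternatives that need libraries, was replaced by the authors' test.

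A positive value was taken to mean a higher level in offspring of HCD dams. The labels name the RD-dam group as control for HCD-weaned offspring only; for RD-weaned offspring the reading rests on the order of groups, and if it is wrong all signs of that table turn. Small fold changes of low genes (median absolute log2 0.0474 at a mean normalized count under 10 and 0.153 at 100 or more in the authors' deposited table of RD-weaned females) look shrunken toward 0. The largest standard error of any gene was 0.326 for HCD-weaned males, 0.447 for HCD-weaned females, 0.454 for RD-weaned males and 0.296 for RD-weaned females. CPM is the mean normalized count over its sum in a table (15402649 to 26951335), times 1000000, and was divided by the length of the longest protein-coding GENCODE vM21 transcript. The trend of fold change and Wald statistic with the logarithm of length and with GC content was removed by cubic splines, for genes with a length (at least 96.4% of those tested). Differences between tables were referred to the normal distribution. The computations used Python 3.11.15, numpy 2.4.6, pandas 2.3.3, scipy 1.17.1 and matplotlib 3.10.9, and were tested on simulated data. Genes were called at an adjusted p under 0.05. Given with full values are members called anywhere, and the 2 most positive and 2 most negative Wald statistics per set and comparison; other members and genes of other lists are named with part of their values, after these were seen. The members and lists were chosen with earlier results of these data known, so no list was tested. Ccn2 was matched under its older symbol Ctgf.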

Additional observations from a re-analysis of the deposited data

How the results depend on the processing

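No paired analysis was possible because the library columns carry no replicate number that a label gives. DESeq2 or edgeR on counts and leaving out a replicate could not be run for the same reason. For HCD-weaned females, where 0 members were called, Camk2a made it 1 at an adjusted p under 0.10 (0.0585), among genes with a mean normalized count of at least 100 (0.0466) and with fold changes centred on their median (0.0483). Over all genes these 3 settings called 450 of 15043, 293 of 11986 and 196 of 15043, where the main setting called 229 of 15043. Camk2a was not called with all genes that have a p-value adjusted together, with the statistic divided by its robust spread, or with the trend removed. Those settings called 166 of 19006, 56 of 15043 and 43 of 14507 genes. For RD-weaned males Mef2c made it 1 with the authors' statistic divided by its robust spread (adjusted p = 0.0333). That spread was 0.847, so the division enlarged every statistic, and calls over all 12920 genes rose from 11 to 74. In HCD-weaned males the spread was 1.17, and the same division cut calls over all 15384 genes from 25 to 3. In HCD-weaned females it was 1.12, and calls over all 15043 genes fell from 229 to 56. For RD-weaned females the 2 called members became 5 at an adjusted p under 0.10 (Neurod2, Mef2c, Tbr1, Emx1 and Spink8) and 4 with the statistic divided by its robust spread (without Tbr1). Calls over all 15028 genes there rose from 52 to 90 and 74 in the same order. With the sign of the RD-weaned table turned, 2 members, Nrgn and Spink8, differed between HCD-weaned females and RD-weaned females, in place of 0. Over all 14603 genes the count rose from 1 to 186. The sign tallies and the distance between the medians of both sets with the RD-weaned tables turned or the trend removed, given with those results, were alternatives chosen after seeing the data. Why the counts moved was not tested, beyond the looser threshold itself. Each of the other 59 alternative values, for counts of members called and for set medians within a comparison, stayed within 1.5 times the count or within the members' median standard error. The striatal median of HCD-weaned females, 0.03, was nevertheless -0.01 with fold changes centred. The medians of differences between comparisons are not covered by this. For HCD-weaned females minus RD-weaned females they moved further with the RD-weaned table turned, as given above. Of 192 alternative values for the named genes 188 kept their direction and side, the other 4 being the Camk2a and Mef2c values above. Over all genes, removing the length and GC trend left 17 called genes of 25 in HCD-weaned males and 43 of 229 in HCD-weaned females, counts that do not say which genes. Precision is limited by 3 or 4 samples a group, and depth per sample is not known here.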
